A study of Mus musculus with 8 samples.

Results

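Genes of mitosis and the spindle were read as 47 members chosen by name, with earlier results of these data known. They encode mitotic kinases, parts of the spindle checkpoint, kinesin motors, kinetochore and condensin subunits, and proteins of cytokinesis. The RNA-seq table listed 24062 genes, and each of the 47 symbols matched 1 row of it. An adjusted p-value was given for 11482 genes, and all 47 members were among them, so none was lost to the filter on low counts. The log2 fold change lay below 0 for 47 of 47 members in the authors' deposited table, and 9 of them passed an adjusted p below 0.05.

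In mitosis the duplicated chromosomes are compacted by condensin, attached to spindle microtubules through kinetochores, held back by a checkpoint until all are attached, pulled apart, and packed into daughter cells that are then cut from each other. Kinases of the Aurora, Polo and Nek families drive these steps, and kinesins move chromosomes and slide microtubules. Most of these genes are transcribed late in the cell cycle, from promoters held silent in resting cells by the DREAM complex and activated by B-Myb and FoxM1. Their RNA in a culture of dividing fibroblasts is therefore widely used as a measure of proliferation.

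The clones labelled 14-3-3ε carried a FLAG-tagged 14-3-3ε plasmid driven by a CMV promoter, and those labelled control carried the control vector. Both kinds were single picked colonies of the mouse embryonic fibroblast line NIH3T3, which grows without limit, grown in 10% serum after selection with 800 µg/mL of G418. RNA-seq and reduced representation bisulfite sequencing (RRBS), which reads methylation in CpG-rich fragments, were each done on 14-3-3ε clones 10 and 12 and on control clones 2 and 3. Each assay came as 1 table of the authors' comparison of the groups, so the level in each clone and the spread between clones cannot be shown. With 2 clones per group, differences among picked colonies and an effect of the plasmid cannot be told apart. The tables do not state the direction of the comparison: higher and lower mean 14-3-3ε clones relative to control clones, the usual convention of the tools named in the labels, and every direction given rests on that reading.

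The mouse gene of 14-3-3ε, Ywhae, had a log2 fold change of -0.03 in the authors' deposited table (adjusted p 0.942), so it gave no check of that reading. Of 10 fibroblast markers, 9 had an adjusted p, and the mean normalized count of these 9 ran from 4843 for Pdgfrb to 424650 for Fn1, while Fap was at 0 in the authors' deposited table. Of the 9, 5 were higher at an adjusted p below 0.05 and none was lower. The blood marker Cd68 reached 110 and the epithelial marker Krt8 51.1 in the authors' deposited table, and the neural marker Map2, at 781, was lower with a log2 fold change of -1.36. The other blood markers, Ptprc, Itgam and Cd3e, were at 10.2, 6.57 and 0.246. The other epithelial markers, Epcam, Cdh1 and Krt18, were at 0.502, 0.732 and 0.25. The other neural markers, Tubb3, Gfap and Rbfox3, were at 0.971, 0.743 and 0.502. The highest endothelial marker was Cdh5 at 8.17 and the highest muscle marker Myh3 at 6.61. The part of these markers in the results on mitotic genes was not tested.

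Of the 47 mitotic genes, 9 were lower in 14-3-3ε clones, none was higher, and the other 38 did not pass the authors' adjusted test. The 9 that fell were Ect2, Anln, Espl1, Kif18a, Cenpe, Aurka, Nek2, Bub1b and Tpx2, which is 19.1% of the members. Across all tested genes 4.74% of tested genes were lower and 6.15% higher by the same rule. The median log2 fold change of the 47 members was -0.58, which corresponds to 33.1% less RNA, against a median of -0.0027 over all tested genes. Members ranged from -0.96 for Ect2 to -0.26 for Bub3 in the authors' deposited table, and 50.2% of all tested genes lay below 0. At an unadjusted p below 0.05, 23 members were lower and none higher, where 11.8% of all tested genes were lower. At an adjusted p below 0.01, 1 member was lower, Ect2, which is 2.13% of the members against 2.19% of all tested genes. Genes that are switched on in the same cells at the same stage of the cycle are not independent of each other, so 47 values below 0 are not 47 separate observations. In bulk RNA, fewer cells in mitosis and less RNA in each mitotic cell cannot be told apart.

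**Figure D1:**
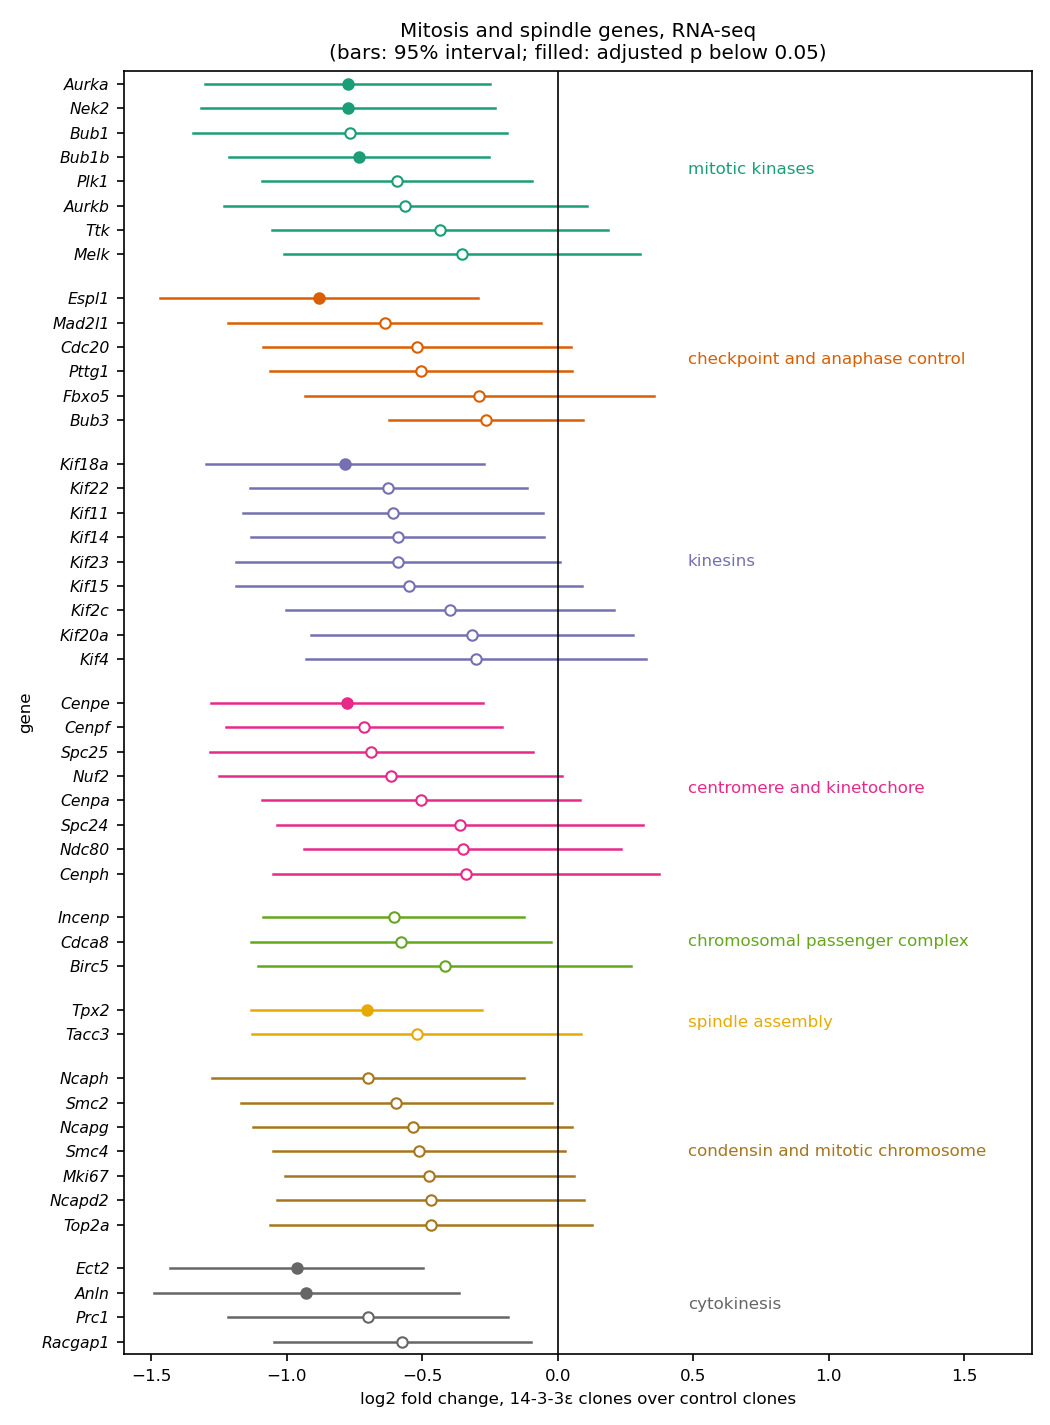
Log2 fold change of each of the 47 mitosis and spindle genes (14-3-3ε clones over control clones, x axis), grouped by role, as points with 95% intervals of 1.96 standard errors; filled points passed an adjusted p below 0.05. All points lie left of 0, from -0.96 for Ect2 to -0.26 for Bub3. Of the 47 intervals, 23 lie wholly below 0, as do those of 11.8% of all tested genes.

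The members differed from each other by less than their own errors. The standard deviation of the 47 log2 fold changes was 0.17, while the standard error of a single member ran from 0.18 for Bub3 to 0.36 for Cenph in the authors' deposited table. An order among members, or among the roles below, is therefore a description of the estimates and not a ranking that these clones resolve. Counts of calls per role are small and stand beside the 4.74% of all tested genes that were lower. The median standard error of the members was 0.29, against 0.24 over all tested genes. Among 8491 other tested genes with a mean normalized count within the range of the members, 321 to 11823, the median standard error was 0.22, and 45 of the 47 members lay above it. A call needed a fold change of at least 2.78 standard errors, which for the members is a log2 size of 0.51 to 1.01, with a median of 0.81. For 46 of the 47 members a fall of the size of the list's median was thus too small to be called with these libraries. Members with a larger standard error tended to have a log2 fold change nearer to 0 (Spearman correlation 0.52 over the 47 members, which share the same libraries). The deposited folds look like moderated estimates, drawn toward 0, and the part of this in the correlation was not tested.

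**Figure D2:**
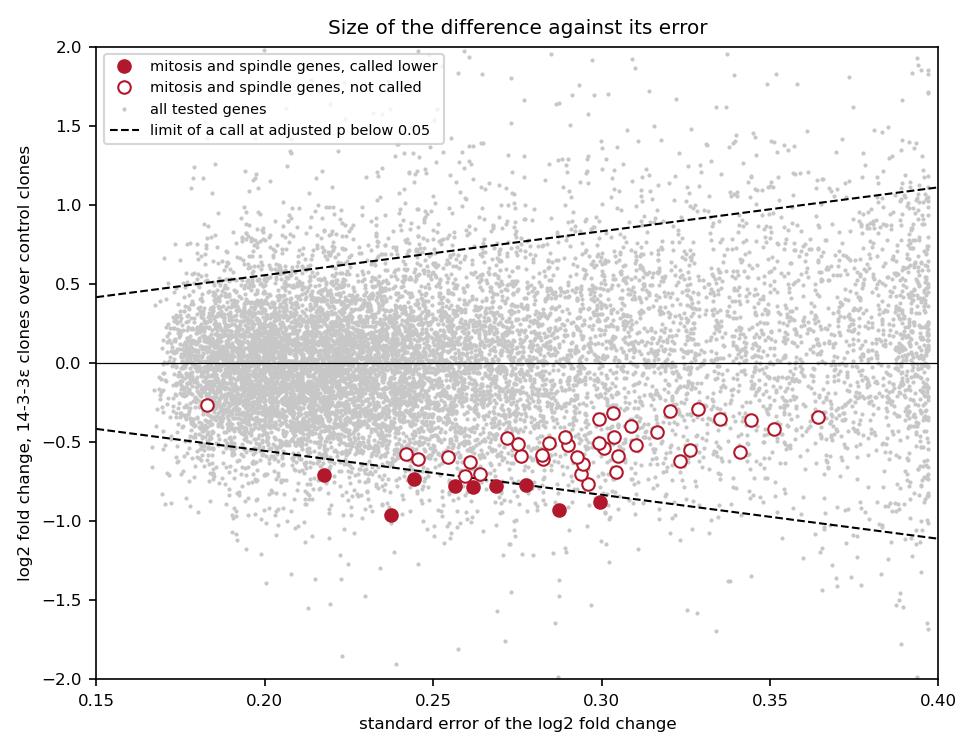
Log2 fold change (y axis, 14-3-3ε clones over control clones) against its standard error (x axis) for the mitosis and spindle genes in red and all tested genes in grey; genes beyond the y limits are not drawn. Dashed lines mark 2.78 standard errors, the limit of a call: the 9 filled red points lie past the lower line, and the open red points lie above it.

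Promoters of the members are shown because they carry the sequence elements that are known to tie mitotic genes to the cell cycle. The cell cycle genes homology region (CHR) is the element bound by DREAM and B-Myb complexes, and the CCAAT box is the element bound by NF-Y, a general activator of these promoters. RefSeq promoters of build GRCm38.p6, the assembly of mm10, run from 250 bases before to 50 bases after a transcription start, and 41 of the 47 members had 44 of them. The searched letters were TTTGAA or TTCGAA for the CHR, CCAAT for the CCAAT box, and GCGGGAA or TTGGCGC for an E2F-like site, on both strands. A CHR match stood in 33 of the 44 member promoters (75%), against 19.2% of all 32851 promoters and 13.8% of those of tested genes. A CCAAT box stood in 72.7% of member promoters, 38.4% of those of tested genes and 37.4% of all. Both together stood in 65.9% of member promoters, 5.80% of those of tested genes and 7.52% of all. E2F-like letters stood in 20.5% of member promoters, 12.3% of those of tested genes and 6.81% of all. Of 44 CHR matches in member promoters, 30 began within 100 bases of the start, before or after it. A site shared by 2 promoters of a gene, as in Ect2, Bub3 and Prc1, counts in each. The same share was not counted for other promoters, so it has no background. A match is a stretch of letters and not a measured binding site.

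The 250 bases before the start are given, 5′ to 3′ on the strand of the gene, for the 3 members that fell and have CHR letters there: Ect2 (chr3:27153855-27154104, minus strand), Espl1 (chr15:102296043-102296292, plus strand) and Bub1b (chr2:118597961-118598210, plus strand). Capitals mark matches of the 3 kinds of element on either strand, so that CCAAT may read ATTGG, and the E2F-like letters GCGCCAA of Ect2 overlap the CCAAT box nearest to the start.
Ect2: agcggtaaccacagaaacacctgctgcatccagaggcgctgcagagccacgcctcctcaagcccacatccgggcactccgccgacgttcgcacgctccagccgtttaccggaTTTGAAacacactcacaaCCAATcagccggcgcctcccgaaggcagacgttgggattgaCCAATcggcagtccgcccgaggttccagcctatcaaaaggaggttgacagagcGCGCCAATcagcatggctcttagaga
Espl1: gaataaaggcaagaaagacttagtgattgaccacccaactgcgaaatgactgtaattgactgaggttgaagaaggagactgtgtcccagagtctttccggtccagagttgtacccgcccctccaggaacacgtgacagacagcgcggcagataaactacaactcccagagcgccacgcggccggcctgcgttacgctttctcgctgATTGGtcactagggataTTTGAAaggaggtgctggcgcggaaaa
Bub1b: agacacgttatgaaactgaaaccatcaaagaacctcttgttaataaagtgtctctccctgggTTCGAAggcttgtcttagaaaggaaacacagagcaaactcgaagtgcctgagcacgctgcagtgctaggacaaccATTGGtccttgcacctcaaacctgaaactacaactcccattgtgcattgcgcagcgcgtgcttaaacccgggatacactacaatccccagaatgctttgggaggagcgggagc
Counted back from the start, the CHR letters begin at position -138 in Ect2, -27 in Espl1 and -188 in Bub1b. In Espl1 a CCAAT box begins at -44, so the pair lies close together and near the start. Ect2 has 3 CCAAT boxes, at -120, -79 and -23. Ect2 and Bub1b each have a further TTTGAA after the start, at 16 and 41.

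Of 4 genes of cytokinesis, Ect2 and Anln fell. Ect2, which encodes an exchange factor that acts at the site of division, lies on chromosome 3 from 27097222 to 27154253. It fell by 48.7%, a log2 fold change of -0.96 with an error of 0.24, and reached an adjusted p of 0.00147 at a mean normalized count of 2002 in the authors' deposited table. Anln, on chromosome 9 from 22331214 to 22389211, encodes anillin, the scaffold of the contractile ring, and fell by 0.93 on the log2 scale (standard error 0.29, adjusted p 0.0178, mean normalized count 7968) in the authors' deposited table. Prc1, which bundles the microtubules of the central spindle, had -0.70 (0.26, adjusted p 0.0643, mean normalized count 4431), and Racgap1, the partner of Ect2 in that bundle, had -0.58 (0.24, adjusted p 0.109, mean normalized count 3302) in the authors' deposited table. The 4 genes had a median of -0.81. All 4 intervals lay below 0, as did those of 11.8% of all tested genes. The annotated spans of Ect2 and Anln overlap those of 1700125G22Rik and 9530077C05Rik. Library preparation kept strand, but the sources used here do not say whether strand was used in counting, so reads of overlapping genes may be shared.

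Among 8 genes grouped here as mitotic kinases, 3 fell, including the checkpoint gene Bub1b. Aurka encodes Aurora A, the kinase of centrosomes and spindle poles, and lies on chromosome 2 from 172356190 to 172370886. Its log2 fold change was -0.78 (standard error 0.27, adjusted p 0.0396, mean normalized count 1137) in the authors' deposited table. The span of Aurka overlaps that of Cstf1. Nek2, a kinase that separates centrosomes, on chromosome 1 from 191821449 to 191833049, also had -0.77 (standard error 0.28, adjusted p 0.0490, mean normalized count 929) in the authors' deposited table and was the called member nearest to the threshold. Bub1b, on chromosome 2 from 118598202 to 118641592, encodes the checkpoint protein BubR1 and had -0.73 (0.24, adjusted p 0.0306, mean normalized count 1705) in the authors' deposited table. Its relative Bub1 had a log2 fold change of -0.77, between those of Nek2 and Bub1b, yet did not pass, since its standard error was 0.30 and its adjusted p 0.0743 at a mean normalized count of 1633 in the authors' deposited table. Plk1, Aurkb and Ttk, the genes of Polo-like kinase 1, Aurora B and the checkpoint kinase Mps1, had -0.59, -0.56 and -0.44 in the authors' deposited table. Melk had the estimate nearest to 0 of the kinases, -0.35 (0.34, adjusted p 0.571, mean normalized count 484) with a 95% interval from -1.01 to 0.30, computed from the authors' deposited table.

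Of 6 genes grouped here under the checkpoint and anaphase control, Espl1 fell. It encodes separase, the protease that cuts cohesin to release sister chromatids, and lies on chromosome 15 from 102296254 to 102324357. Its log2 fold change was -0.88 (standard error 0.30, adjusted p 0.0355, mean normalized count 1962) in the authors' deposited table. Pttg1, the gene of its inhibitor securin, had -0.50 (0.28, adjusted p 0.269) in the authors' deposited table. The checkpoint gene Mad2l1 had -0.64 (0.29, adjusted p 0.153, mean normalized count 1267) and Cdc20, the activator of the anaphase-promoting complex that the checkpoint restrains, had -0.52 (0.29, adjusted p 0.262) in the authors' deposited table. Fbxo5, which encodes Emi1, another inhibitor of that complex, had -0.29 with an interval from -0.93 to 0.35. Bub3, the partner of Bub1 and BubR1 at kinetochores, had the smallest estimate of all members and the smallest standard error, -0.26 and 0.18 in the authors' deposited table, and its interval ran from -0.62 to 0.09 (adjusted p 0.394, mean normalized count 3052).

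Of 9 kinesin genes, Kif18a fell. Its product dampens the oscillation of chromosomes at the metaphase plate, and the gene lies on chromosome 2 from 109280738 to 109341749, overlapping Mettl15. The log2 fold change was -0.78 (standard error 0.26, adjusted p 0.0314, mean normalized count 706) in the authors' deposited table. Kif22, a chromosome-arm motor, had -0.63 (0.26, adjusted p 0.106, mean normalized count 932) and Kif11, the motor Eg5 that pushes spindle poles apart, had -0.61 (0.28, adjusted p 0.157) in the authors' deposited table. Kif14 and Kif23, both motors of the midbody, each had -0.59, and Kif15, which supports Kif11, had -0.55 in the authors' deposited table. The microtubule depolymerase gene Kif2c, the midzone motor gene Kif20a and the chromokinesin gene Kif4 had -0.40, -0.32 and -0.30 in the authors' deposited table. Kif4, on chromosome X, had a mean normalized count of 1146, an adjusted p of 0.628 and an error of 0.32 in the authors' deposited table. Its interval ran from -0.93 to 0.33, so a fall as large as that of Kif18a and no fall both lay inside it.

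Of 8 genes of the centromere and kinetochore, Cenpe fell. It encodes the large kinetochore motor that brings chromosomes to the plate, and lies on chromosome 3 from 135212563 to 135273540. Its log2 fold change was -0.78 (standard error 0.26, adjusted p 0.0287, mean normalized count 3403) in the authors' deposited table. Cenpf, a protein of the outer kinetochore, had -0.72 and missed the threshold (standard error 0.26, adjusted p 0.0519, mean normalized count 3158) in the authors' deposited table. The 4 subunits of the Ndc80 complex, which grips the microtubule, had -0.69 for Spc25, -0.62 for Nuf2, -0.36 for Spc24 and -0.35 for Ndc80 in the authors' deposited table. Their standard errors ran from 0.30 to 0.34, about as large as the gap between the highest and the lowest of the 4. Cenpa, the gene of the centromeric histone H3 variant, had -0.50 (0.30), and Cenph, of the inner kinetochore, had -0.34 (0.36, adjusted p 0.633, mean normalized count 321) in the authors' deposited table.

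The chromosomal passenger complex joins Aurora B to Incenp, Birc5 and Cdca8 and corrects wrong attachments. None of these 4 genes passed the authors' adjusted test. At an unadjusted p below 0.05, 2 of them, Incenp and Cdca8, were lower, where 11.8% of all tested genes were lower. On the log2 scale Incenp had -0.61 (standard error 0.25, adjusted p 0.0935, mean normalized count 2178), Cdca8 -0.58 (adjusted p 0.182), Aurkb -0.56 (adjusted p 0.313) and Birc5, the gene of survivin, -0.42 (standard error 0.35, adjusted p 0.510, mean normalized count 745) in the authors' deposited table. Tpx2, which activates Aurora A on spindle microtubules, fell with a log2 fold change of -0.71 (standard error 0.22, adjusted p 0.0175, mean normalized count 3260) in the authors' deposited table. It lies on chromosome 2 from 152847964 to 152895321. Tacc3, which stabilises spindle microtubules with clathrin, had -0.52 (0.31, adjusted p 0.301, mean normalized count 1132) in the authors' deposited table.

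No gene of condensin or of the mitotic chromosome passed the authors' adjusted test, although Top2a and Mki67 had the largest mean normalized counts of all members. At an unadjusted p below 0.05, 2 of the 7, Ncaph and Smc2, were lower, where 11.8% of all tested genes were lower. The condensin genes Ncaph, Smc2, Ncapg, Smc4 and Ncapd2 gave -0.70, -0.60, -0.54, -0.51 and -0.47 on the log2 scale in the authors' deposited table. Smc2 and Smc4 form the core of condensin and Ncapd2, Ncapg and Ncaph its regulatory part. Top2a, the topoisomerase that untangles sister chromatids, had -0.47 (0.30, adjusted p 0.354, mean normalized count 11823) in the authors' deposited table. Mki67, the gene of the proliferation marker Ki-67 that coats mitotic chromosomes, had -0.47 (0.27, adjusted p 0.278, mean normalized count 9167) in the authors' deposited table. Ncaph had the lowest adjusted p of the group, 0.108, with a standard error of 0.29 and a mean normalized count of 973 in the authors' deposited table. The 7 estimates spanned 0.23 on the log2 scale, less than any of their standard errors.

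A wider list of 122 other mitotic genes, also chosen with earlier results known, gave 14 that fell and none that rose. Of the 122, 108 had a log2 fold change below 0, where 50.2% of all tested genes lay below 0. The 14 are 11.5% of the list, against 4.74% of all tested genes. Their list had a median of -0.45, and at an unadjusted p below 0.05 there were 42 lower and none higher, where 11.8% of all tested genes were lower. The 14 were Ckap2, Cep55, Arhgap11a, Esco2, Oip5, Ube2c, Cenpn, Aspm, Cdc25b, Gtse1, Casc5, Wee1, Ncaph2 and Plk4. Ckap2, a microtubule-associated protein gene, had -1.21 (standard error 0.20, adjusted p 1.40e-07), lower than any member, in the authors' deposited table. Cep55, which recruits the machinery of the final cut at the midbody, had -1.03 (0.30, adjusted p 0.00868), and Arhgap11a, a regulator of cytokinesis, had -0.998 (0.25, adjusted p 0.00154) in the authors' deposited table. Esco2, a cohesin acetyltransferase gene, had -0.95, Oip5, which helps load Cenpa, -0.93, and Ube2c, the ubiquitin-conjugating enzyme of the anaphase-promoting complex, -0.91 in the authors' deposited table. Cenpn, a kinetochore gene, had -0.87, the spindle pole gene Aspm -0.86, the phosphatase gene Cdc25b -0.85 and the spindle-binding gene Gtse1 -0.83 in the authors' deposited table. Casc5 (now Knl1), a kinetochore scaffold gene, had -0.81, the inhibitory kinase gene Wee1 -0.70, the condensin II gene Ncaph2 -0.65 and the centriole kinase gene Plk4 -0.63 in the authors' deposited table. Their adjusted p ran up to 0.0444, that of Plk4.

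Of 17 genes of entry kinases and transcription in that list, 4 fell, which were Cdc25b, Gtse1, Wee1 and Plk4, and 17 of 17 lay below 0. The genes of the entry kinase itself were among those that did not pass. Cdk1 had a log2 fold change of -0.37 (standard error 0.28) and its cyclin gene Ccnb1 -0.40 (0.30) in the authors' deposited table. Foxm1 had -0.48 (0.30) and Mybl2, the gene of B-Myb, -0.73 (0.34, adjusted p 0.149) in the authors' deposited table. These 4 genes were named for their role after their values were seen. Beside the mitotic genes, 18 of 57 DNA replication genes fell and none rose. Their median was -0.66, with 57 of 57 below 0, against 50.2% of all tested genes. This list, too, was chosen with earlier results known. The 18 are 31.6% of that list, against 4.74% of all tested genes. At an unadjusted p below 0.05, 37 of them were lower and none higher, where 11.8% of all tested genes were lower. The lowest of these was Mcm10, which starts the replication fork, with -1.20 (standard error 0.29, adjusted p 0.000874) in the authors' deposited table. Whether mitotic and replication genes differed in their shift was not tested, since both sets of estimates come from the same clones.

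**Figure D3:**
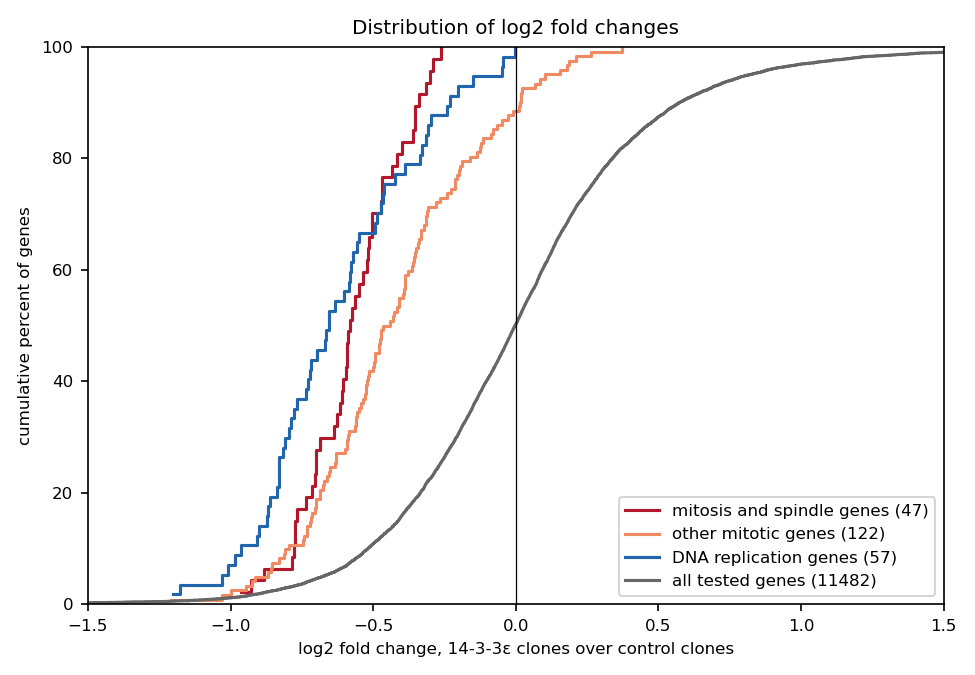
Cumulative percent of genes (y axis) by log2 fold change of 14-3-3ε clones over control clones (x axis, cut at 1.5 on either side) for the 47 mitosis and spindle genes, 122 other mitotic genes, 57 DNA replication genes and all 11482 tested genes. The curves of the 3 cell cycle lists lie left of the curve of all genes, with medians of -0.58, -0.45 and -0.66 against -0.0027.

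In RRBS, methylation around the start sites of the mitotic genes differed little between 14-3-3ε and control clones. Windows of 1000 bp on each side of a start held at least 5 listed cytosines for 38 of the 41 members with a promoter entry, 2331 cytosines in all, and Bub1b, Kif15 and Kif2c had none. Of these cytosines, 17 were lower (0.729%) and 24 higher (1.03%) at a q-value below 0.05 in the authors' deposited table. In the windows of all 14504 genes with at least 5 listed cytosines, 1.9% were lower and 1.44% higher. The mean difference of a member's window lay between -1.80 percentage points for Plk1 and 1.25 for Kif22, with a median of -0.07, against -0.11 over all genes, as averaged from the authors' deposited table. It was under 1 point in size for 31 of the 38 members (81.6%), and for 59.1% of all genes. At least 1 called cytosine was found for 16 members (42.1%), where 58.5% of all windows had one. Coverage per cytosine is not in the table, so the depth behind these values is unknown. The methylation level in each group is not given either, so how far a cytosine could have fallen is unknown. If reads were pooled within a group, q-values measure the sampling of reads and not the spread between clones.

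Within 250 bp of a member's start 11 of 1514 cytosines were called (0.727%), and farther out 30 of 817 (3.67%). In the windows of all genes the shares were 2.44% within 250 bp and 4.25% farther out, so called cytosines were more frequent away from the start there too. Of the 9 genes that fell in RNA-seq, Ect2 had 1 cytosine lower and 1 higher, Cenpe had 2 higher, and Anln, Espl1, Kif18a, Aurka and Nek2 had none called in the authors' deposited table. Mean differences of these 7 windows ran from -0.95 points for Aurka to 1.18 for Anln. No window mean was available for Tpx2 or Bub1b. Among members that did not pass in RNA-seq, Tacc3 had 7 cytosines higher, the largest 445 bp before the start at 17.6 points with a q of 6.63e-09 in the authors' deposited table. Plk1 had 5 lower, 4 of them inside the gene between 688 and 730 bp after the start, with the largest at -20.6 points and a q of 9.17e-12 in the authors' deposited table. Mki67 had 4 higher, by 6.69 to 9.49 points, between 273 and 340 bp after the start in the authors' deposited table. Cenpa had 2 lower and 3 higher between 519 and 550 bp after the start, from -30.9 to 38.5 points in the authors' deposited table, so neighbouring cytosines went opposite ways. The remaining members with calls were Cdc20 and Ncapd2 with 2 higher each, Spc25 with 2 lower, Kif23 with 2 lower and 1 higher, and Ndc80 with 1 of each. Bub1 had 1 higher, and Cenph, Fbxo5, Kif22 and Smc2 had 1 lower each in the authors' deposited table. Called cytosines can lie at adjacent positions, as those of Cdc20 do, 566 and 567 bp after the start. Adjacent positions may be the 2 strands of 1 CpG, so counts of cytosines are not counts of separate sites.

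**Figure D4:**
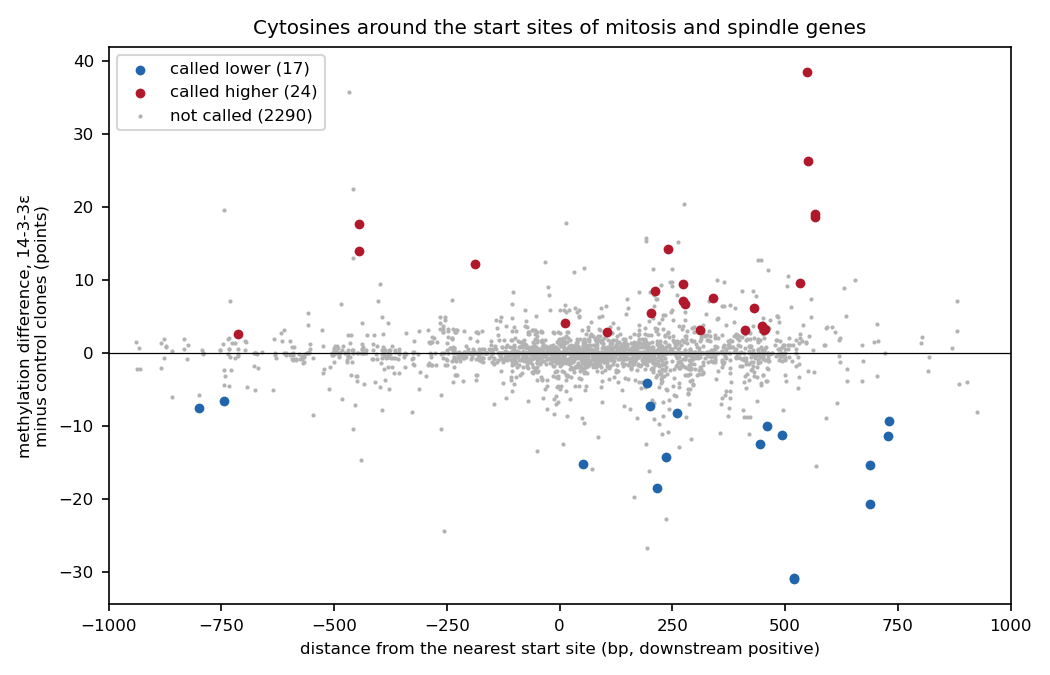
Methylation difference of each of 2331 cytosines (14-3-3ε minus control clones, percentage points, y axis) against its distance from the nearest start site of 38 mitosis and spindle genes (bp, x axis). The 17 cytosines called lower are blue, the 24 called higher are red and the others grey; within 250 bp of the start 11 of 1514 were called.

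Over the whole annotated spans of all 47 members, 2651 cytosines were listed, of which 33 were lower (1.24%) and 25 higher (0.943%). Of all cytosines on chromosomes 1 to 19, X and Y, inside genes or not, 2.83% and 1.92% were so called. In the start windows of all genes the shares were 1.9% and 1.44%. The spans of all genes were not counted, so a background of like kind is lacking. Smc4, whose RNA did not pass the test, had 7 lower and 1 higher of 127 in the authors' deposited table. Tpx2, which fell in RNA-seq, had 2 lower of 56, and Bub1b had none called of 17 in the authors' deposited table.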

How the data were processed

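The members and gene lists were chosen with earlier results of these data known. The authors used Trim Galore, TopHat2, Bowtie2, HTSeq, DESeq2, Bismark and methylKit with build mm10, per the submitters' processing notes, which give no version, role or setting. The authors deposited for each gene a mean level, a signal under the header that DESeq2 uses for mean normalized counts and read so here. They also deposited a log2 fold change with its standard error, a score (the fold over its error), a p-value and an adjusted p-value. For each cytosine the authors deposited the difference in percent methylation, with p-value and q-value. These tables hold no values per library, so depth per sample is unknown and no model was fitted.

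A gene was called where the authors' adjusted p lay below 0.05. Benjamini-Hochberg adjustment of their p-values over 11482 genes returned the deposited values to within 2.18e-15. The lowest mean level with an adjusted p was 33.1. The deposited folds of genes with few reads are small, as moderated estimates are, so changes of low genes may be understated, which was not tested. Intervals are 1.96 standard errors on each side (95%). The planned logistic model on methylation counts was not possible, since the table has no counts. Window means are unweighted averages over cytosines, and calls are at q below 0.05. Start sites and spans are from RefSeq GRCm38.p6, in which all 47 symbols matched. All members are named, and full values are given for the called ones and, per role, the uncalled ones with the lowest and highest fold. Alternatives were other thresholds, filters and windows. Python 3.11.15, pandas 2.3.3 and scipy 1.17.1 were used, and the adjustment was tested on simulated data. For 7 list symbols an older symbol was used, and Diaph3 was not analysed here.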

Additional observations from a re-analysis of the deposited data

How the results depend on the processing

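With the authors' adjusted p below 0.1, 13 members were lower (27.7%), the 9 among them, and 24 of 122 other mitotic genes. Across all tested genes 6.92% were lower at that limit. Below 0.01, 1 member (Ect2), 6 of 122 other mitotic genes and 11 of 57 replication genes were lower. The share of members, 2.13%, was near that of all tested genes, 2.19%. Without a filter on low counts 6 members were lower (12.8%), all among the 9, against 2.45% of the 17478 genes with a p-value. Aurka, Espl1 and Nek2 missed the threshold, with adjusted p of 0.0597, 0.0536 and 0.0736. Centred on the median of all tested genes, Nek2 missed it with 0.05001 and the other 8 were lower. These 8 are 17.0% of the members, against 4.64% of all tested genes. With a mean level of at least 100, or a fold of at least 1.5 as well, the same 9 were lower. These 9 are 19.1% of the members, against 5.12% and 4.29% of the genes tested. No member was called higher under any of these 6 settings, which leave the deposited folds as they are except for the centring. For promoter cytosines of members, 9 of 2141 were lower (0.420%) and 18 higher (0.841%) within 500 bp, against 1.66% and 1.25% over all genes. At q below 0.01, 8 of 2331 were lower (0.343%) and 9 higher (0.386%), against 1.01% and 0.76% over all genes. When at least 25 points were required, 2 were lower and 2 higher (0.0858% each), against 0.461% and 0.293% over all genes. CHR letters stood in 22.7% of member promoters when only the 100 bases before the start were searched, against 6.13% of all. That search also left out the 50 bases after the start. Smaller windows and stricter limits can only keep or lower these counts. No paired analysis was possible because the tables hold no values per clone and the groups compared share no clone number. For the same reason leaving out each clone was not run.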

Other observations

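Estimates for the anaphase-promoting complex, the ubiquitin ligase that ends mitosis, lay on both sides of 0. Of its 11 subunit genes in the wider list none passed the authors' adjusted test. Their median log2 fold change was -0.01, with 6 below 0 and 5 above, from -0.39 for Anapc1 to 0.37 for Anapc4 in the authors' deposited table. At an unadjusted p below 0.05, 1 of the 11, Anapc1, was lower, where 11.8% of all tested genes were lower. The standard errors of these subunits ran from 0.17 to 0.27. The 8 genes of augmin, which branches spindle microtubules, had a median of -0.42, and 7 of them lay below 0, from -0.68 for Haus6 to 0.02 for Haus7 in the authors' deposited table. None passed the test. At an unadjusted p below 0.05, 1 of the 8, Haus6, was lower, where 11.8% of all tested genes were lower. Both complexes were set apart from the wider list after the values were seen, so these values are a description with no test.

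Members with and without CHR letters had medians close to each other, with no test of the difference. The 30 members with such letters in a promoter had a median log2 fold change of -0.58, and 5 of them fell. The 11 without had -0.62, and 3 of them fell, where 4.74% of all tested genes were lower.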
